A study of Drosophila melanogaster with 36 samples.

Results

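Transcripts of adult Drosophila melanogaster of the strain Antp73b were compared with those of the wild-type strain OregonR on the 8 arrays, of 36 in the series, that carried these 2 strains together. Arrays 50 to 53 held OregonR in channel 1 and Antp73b in channel 2, and arrays 62 to 65 held them the other way round. All 8 were chosen by their titles, and no measured value was used. Each array was hybridised with cDNA made from poly(A) RNA of whole flies bought from a commercial supplier, labelled with Cy3 for probe 1 and Cy5 for probe 2. Both strains are stocks with no further treatment in the labels; the sources used here do not give their genetic background, their age or sex, or how many times RNA was extracted. P-values therefore measure how arrays vary, which can be technical, and 1 stock per genotype means that the allele, the background and the stock's culture cannot be told apart.

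Antennapedia (Antp) encodes a homeodomain transcription factor of the Hox family, which normally specifies thoracic segments. Dominant Antp alleles such as this one express the gene in the developing antennae, which then form legs. That change is made in the larva and pupa, and the flies measured here were adults, so the arrays read the transcripts of a finished body. In a whole adult female the ovary, gut and fat body contribute much of the RNA, and these organs also respond to age, feeding, mating and microbes.

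The deposited values are fold ratios between the channels with a sign for direction, and the sources used here do not say which channel a positive value favours. They were read as channel 1 over channel 2, put on a log2 scale and turned so that Antp73b was always set against OregonR. Under that reading the plus side means more transcript in Antp73b, and under the opposite reading it means less. Results are therefore given by side. The strain difference of an element, which is a cDNA spotted in duplicate, is the mean of the 2 orientations after turning. The dye offset, which is what the channels add whichever strain they hold, is taken out by the same model. An element was called when its limma p-value, adjusted by the Benjamini-Hochberg method over all 15170 tested elements, was under 0.05.

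Of 15170 elements, 1951 (12.9%) were called, 1140 of them plus (7.51%) and 811 minus (5.35%). Plus calls made up 58.4% of the total, but 51% without centring of the arrays (923 plus, 888 minus), 51.9% with quantile normalization (1044 and 968) and 53.5% with trimmed mean centring (1048 and 910). Small differences prevailed. Called elements had a median fold of 1.24, 223 (1.47% of those tested) reached 1.5-fold, and 53 reached 2-fold, with 42 of these on the plus side. Beyond 4-fold lay 6 plus elements and 3 minus elements. The elements with 1 listed gene stood for 10629 genes, of which 911 (8.57%) had a plus call and 671 (6.31%) a minus call. These shares are the background against which the gene groups below are read.

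The depth of an array is its number of usable spots, which ran from 28076 to 30433 of 31464. The SD of log2 ratios over the tested elements was 0.295 to 0.400 on the 8 direct arrays, against 0.216 to 0.321 on the 8 arrays that hybridised OregonR or Antp73b with itself. Among elements with 1 gene, 38 to 118 lay beyond 2-fold on a direct array and 0 to 11 on a self-hybridised one. The median standard error (SE) of a fitted difference was 0.075. Within the 2 pairs of arrays that came first by number in their orientation, 851 elements were called, and 801 of these were among the 1951. Within the last 2 pairs 409 were called, 407 of them shared, and for even-numbered and odd-numbered arrays the counts were 485 (483 shared) and 606 (586 shared). Each subset is part of the 8 arrays that gave the 1951, so this sharing is partly built in and is no independent check.

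The largest differences belonged to genes of sugar digestion, defence and detoxification on the plus side, and to lysozymes, a cytochrome P450, a lectin and egg shell genes on the minus side. tobi, an alpha-glucosidase that responds to insulin signalling and diet, had turned log2 ratios of 2.61, 2.72, 2.63 and 2.71 with OregonR in channel 1 and of 3.02, 2.96, 2.90 and 2.68 with Antp73b in channel 1. All 8 arrays lay far from 0, and both orientations overlapped. The fitted difference was 2.78 (SE 0.067), a 6.87-fold difference, with a limma adjusted p of 4.7e-19. LysE, a lysozyme of the digestive tract, read -2.92, -2.67, -3.22 and -3.20 in the first orientation and -2.23, -2.77, -2.23 and -2.66 in the other. It was the mirror image of tobi in size, at -2.74 (SE 0.081, 6.67-fold, limma adjusted p = 2.8e-17).

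**Figure D1:**
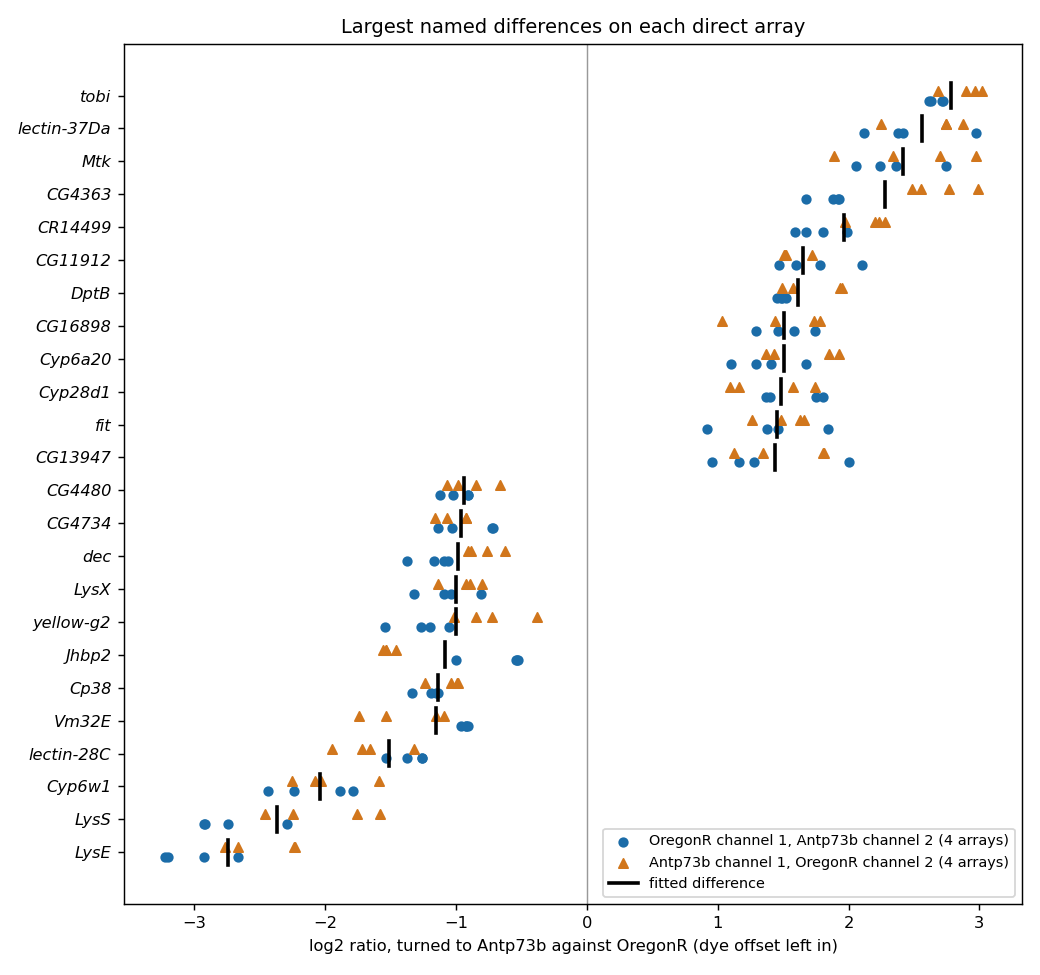
Turned log2 ratios of the 12 genes with the largest called difference on each side (y axis) on each of the 8 direct arrays (x axis), with circles for OregonR in channel 1, triangles for Antp73b in channel 1 and a bar for the fitted difference. The rule that chose these 24 genes asked for 1 side on all arrays; the nearest plus value is 0.92 and the nearest minus value -0.38.

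After tobi on the plus side came the C-type lectin lectin-37Da (2.56), Mtk, which encodes the antifungal peptide metchnikowin (2.41), CG4363 (2.27), the non-coding gene CR14499 (1.97), CG11912 (1.65) and DptB, which encodes the antibacterial peptide diptericin B (1.61). CG16898 (1.51), the cytochrome P450 genes Cyp6a20 (1.51) and Cyp28d1 (1.49), fit, a fat body gene of female feeding (1.45), and CG13947 (1.43) completed the 12. On the minus side LysE was followed by LysS (-2.36), Cyp6w1 (-2.04), the C-type lectin lectin-28C (-1.51), the vitelline membrane gene Vm32E (-1.16), the chorion gene Cp38 (-1.13), and Jhbp2, a juvenile hormone binding protein gene (-1.09). The last were yellow-g2, needed to harden the egg shell (-1.003), the lysozyme gene LysX (-1.002), the chorion gene dec (-0.99), CG4734 (-0.96) and CG4480 (-0.94). Their SEs ran from 0.067 to 0.097, and the rule that chose them asked for 1 side on all arrays once the dye offset was taken out, so that their arrays lie on that side is a description. On the self-hybridised arrays none of the 24 read further from 0 than 0.88. Beyond 2-fold the named genes are not the whole: 16 of the 53 elements that reached it have no gene listed, and the largest of these, at 3.03 (SE 0.073), exceeded tobi.

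The gene named in the strain's label did not differ beyond the spread of its arrays. Antp read -0.12, -0.26, 0.00 and 0.47 in the first orientation and -0.31, 0.26, 0.37 and 0.32 in the other. Both signs occurred in each orientation, and array 62 lay apart from the other 3 of its group. The fitted difference was 0.09 (SE 0.086, limma adjusted p = 0.57). The sources used here do not give the stretch of the gene that the element covers, so this reading does not check the label.

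Other genes of segment identity and appendage patterning were near the background. Of 9 Hox genes and cofactors only Dfd, which specifies head segments, was called, at 0.34 (SE 0.098, limma adjusted p = 0.026). It had a value on 6 arrays, 0.14, 0.68 and 1.07 in the first orientation and 0.06, 0.00 and 0.07 in the other, so arrays 51 and 52 carried the difference and it lost the call in 9 of 20 alternative analyses that gave it a value. Scr, the Hox gene of the prothorax, stood at 0.03 (limma adjusted p = 0.82). Of 46 genes of antenna and leg patterning 2 were called plus (Dfd and Dll, the distal leg selector, 0.23) and 1 minus (salr, -0.21). Both Dll and salr lost the call in 13 of 24 alternative analyses. Of 19 wing patterning genes pdm2 was called in one element (0.38) and not in its other (-0.01), and ap, the gene mutated in the third strain of the series, was not (0.05, limma adjusted p = 0.77).

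Antp lies on chromosome arm 3R in a complex with other homeotic genes. Among 20 tested genes around it 3 were called plus and 2 minus, with a median of 0.03. Of the 3 nearest on each side Dfd, Sodh1 (0.23) and CG1979 (0.22) were called, and Scr, ftz (-0.05) and dj (-0.18) were not. Sodh1 encodes a sorbitol dehydrogenase. It lost the call in 11 of 24 alternative analyses, and CG1979 in 12 of 24. The 2 called minus were bcd, the maternal anterior determinant (-0.45; its other element read -0.12 and was not called), and CG1943 (-0.22).

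All 13 tested egg shell genes were called on the minus side, against a background of 6.31% of genes, and their median difference was -0.81. The group holds proteins of the vitelline membrane, which the follicle cells lay down first, and of the chorion, the outer shell. Cp38 read -1.15, -1.14, -1.19 and -1.34 in the first orientation and -0.99, -1.04, -0.98 and -1.24 in the other, a spread far smaller than the difference itself. Vm26Aa, a vitelline membrane gene, varied more, from -1.75 on array 50 to -0.43 on array 62, and stood at -0.85 (SE 0.092). The others ran from Femcoat, a chorion gene (-0.84), and Vm34Ca (-0.81) through yellow-g (-0.64), Cp16 (-0.52), psd (-0.49), Vm26Ac (-0.44) and Fcp3C (-0.38) to ndl, a protease that patterns the egg (-0.33). The median of the group on a single array ran from -0.93 to -0.49. In RNA of whole flies a difference in the number of follicle cells, or of females, and a difference in RNA per cell cannot be told apart, and this holds for every tissue group below.

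Genes of the germline inside those eggs stood on the same side. Of 13 genes of the maternal cell cycle and egg activation, 8 were called minus and 0 plus (median -0.29). They included all 3 subunits of the kinase complex that starts the embryo's first divisions, gnu (-0.71), png (-0.35) and plu (-0.27). mtrm, which holds the kinase Polo in check in the oocyte (-0.72), the maternal tubulin gene alphaTub67C (-0.62), the cyclin genes CycB (-0.58) and CycB3 (-0.29) and the phosphatase gene twe (-0.32) were the rest. alphaTub67C read -0.67, -0.63, -0.76 and -0.54, then -0.74, -0.38, -0.68 and -0.58, so the orientations overlapped. CycB read from -1.07 to -0.85 with OregonR in channel 1 and from -0.26 to -0.07 with Antp73b in channel 1. Those groups did not overlap, which is a dye offset on top of a strain difference of one sign.

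Of 35 oocyte and germ plasm genes 10 were called minus and 1 plus (median -0.12). smg, a repressor of maternal mRNA, was called in both of its elements (-0.71 and -0.33), and so was osk, which assembles the germ plasm (-0.34 and -0.29). vas (-0.56), BicC (-0.53), me31B (-0.52), shu (-0.41), otu (-0.38), cup (-0.31) and exu (-0.28) act in the same egg chambers. The plus call was qin, a gene of the piRNA pathway (0.39). It was carried by the first orientation (0.71 to 1.13), while the other read from -0.42 to 0.13. Taken through the third strain, ap56f, its difference was -0.01. Yolk split: yl, the receptor that takes yolk into the oocyte, stood at -0.73 (SE 0.072) and Yp2 at -0.22 (limma adjusted p = 0.04), while the other 2 yolk protein genes were not called and the median of the 4 was -0.11.

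DNA replication genes had 16 of 38 members called minus and 0 plus (median -0.15). RnrL, the large subunit of ribonucleotide reductase, stood at -0.67, RPA2 at -0.41 and PCNA, the sliding clamp, at -0.40. Helicase subunits Mcm5 (-0.40) and Mcm6 (-0.37), the licensing factor dup (-0.34) and the flap endonuclease Fen1 (-0.32) were also called. Among 7 histone and linker genes BigH1, the germline linker histone, was called minus (-0.48), 1 further member was minus and 0 were plus.

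Genes listed for male reproduction and mating were not all alike. Of 42 testis and sperm genes 2 were called plus (Ance-3 at 0.34 and Prosalpha3T at 0.28) and 0 minus, with a median of 0.00. Of 25 genes of seminal fluid and the ejaculatory duct 9 were called minus and 2 plus (median -0.10). Acp53C14a, an accessory gland protein gene, stood at -0.60 and read from -0.86 to -0.36 on the 8 arrays. Acp62F (-0.55), Acp53C14b (-0.51 and -0.38 in 2 elements), Acp36DE, which acts in sperm storage (-0.42), and SP, the sex peptide that changes the female's behaviour after mating (-0.34), were among the others. The plus calls were EbpIII (0.34) and hdly (0.40), which stands in this list although it is not a seminal fluid gene.

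**Figure D2:**
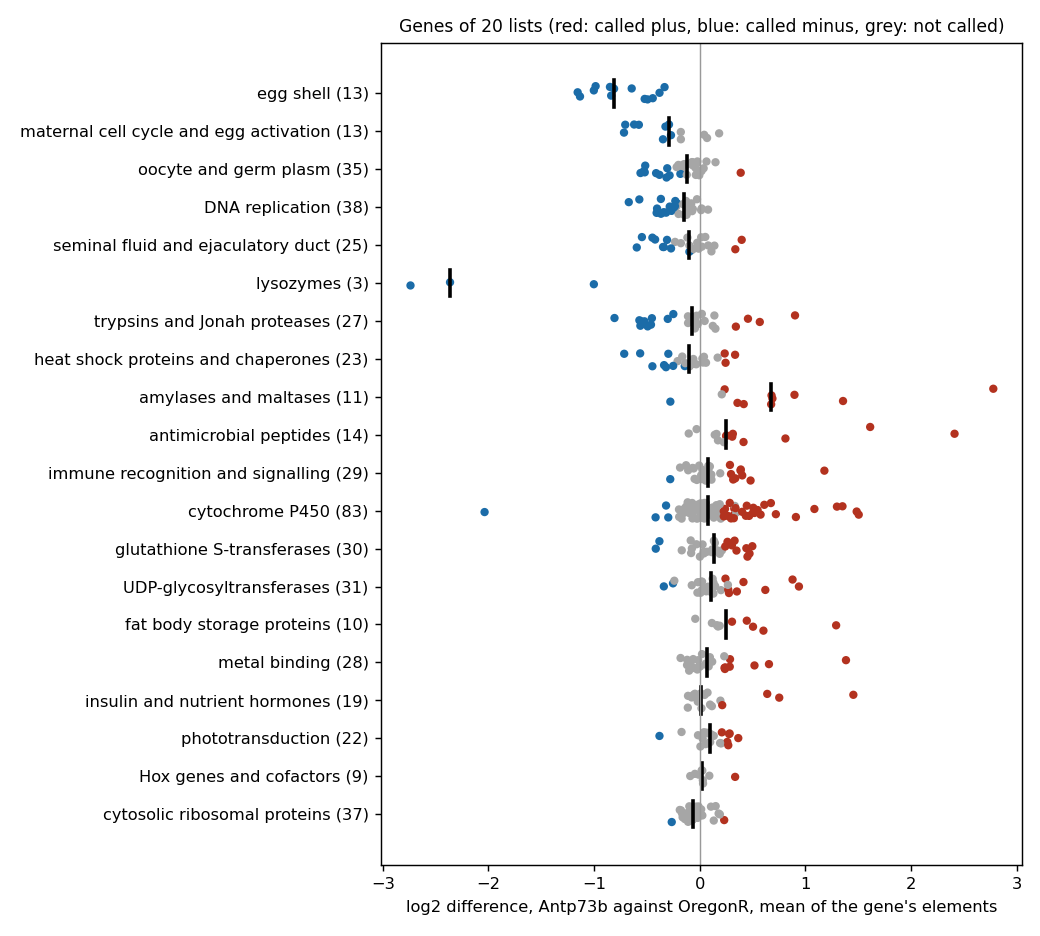
Log2 differences of the genes (points, mean over a gene's elements) in 20 lists, with the number of tested genes in brackets and a bar at the list median; the x axis is the Antp73b against OregonR difference. The 13 egg shell genes all lie left of 0, 9 of 11 amylase and maltase genes are called on the right, and the 37 cytosolic ribosomal protein genes lie close to 0.

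Digestive genes were called on both sides. Of 11 amylases and maltases, which split starch and sugars, 9 were called plus and 1 minus, with a median of 0.68. Mal-A1 read 1.06, 1.00, 1.00 and 1.02 in the first orientation and 1.63, 1.62, 1.80 and 1.72 in the other; the orientations did not overlap, yet each array was at 2-fold or beyond, and the difference was 1.36 (SE 0.065). Amyrel, an amylase relative (0.90), Mal-A2 (0.69), Mal-A6 (0.68), Mal-A8 (0.68), Mal-A7 (0.42), Mal-B2 (0.36) and Mal-A3 (0.24) were also plus, and Mal-B1 was minus (-0.28). Treh, which splits the blood sugar trehalose, was called in 3 elements, at 0.29, 0.37 and 0.43.

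Midgut proteases were called on both sides too. Of 27 trypsin and Jonah genes 11 were called minus and 4 plus (median -0.07). yip7 led at -0.81, followed by 8 Jonah genes between -0.57 (Jon25Bii) and -0.25 (Jon65Aii), and by thetaTry (-0.55) and epsilonTry (-0.45). Ser6, another serine protease gene, was plus on all 8 arrays, from 0.58 to 1.03, with a difference of 0.90. The genes kappaTry (0.57) and lambdaTry (0.46) were also plus on all 8. The other plus call, etaTry (0.34), read 0.00 on array 63.

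The 3 lysozyme genes tested were all minus, with values on single arrays from -3.22 for LysE to -0.80 for LysX. LysS read -2.74, -2.29, -2.93 and -2.92 in the first orientation and -1.58, -2.46, -1.76 and -2.24 in the other. LysE and LysS are near neighbours in a cluster of similar genes on arm 3L, and without the element sequences their signals may be shared. Of 29 genes of the peritrophic matrix, the lining of the gut, 5 were called plus and 2 minus, among them Cht4 (0.37), Mur18B (0.35) and Muc91C (-0.38). Of 13 C-type lectins 2 were plus and 2 minus, and lectin-37Da and lectin-28C lay 2.56 and -1.51 from 0 in opposite directions.

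Of 14 antimicrobial peptide genes, a branch of the defence against microbes, 8 were called plus and 0 minus, with a median of 0.25, against 8.57% of all genes on that side. Mtk read 2.06, 2.24, 2.75 and 2.36, then 2.34, 1.89, 2.97 and 2.70, so its arrays spread widely and still lay far from 0. DptB read 1.45, 1.49, 1.52 and 1.48, then 1.49, 1.58, 1.93 and 1.95. BomBc3, a bomanin gene, stood at 0.81, and AttD (0.41), BomS4 (0.31), IM33 (0.31), BomT3 (0.25) and Drs, the antifungal drosomycin (0.25), were smaller. Drs was carried by the first orientation (0.27 to 0.69), and arrays 64 and 65 read -0.29 and -0.19.

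Of 29 genes listed for immune recognition and signalling, 9 were called plus and 1 minus (median 0.08). PGRP-SB1, which binds peptidoglycan, led with values from 0.92 to 1.58 and a difference of 1.18 (SE 0.073). Tep4 (0.48), the NF-kappa-B factor Dif (0.40), the kinase scaffold key (0.39), Stat92E (0.39) and the Toll pathway proteases SPE (0.32) and psh (0.29) were called, and the amidase gene PGRP-SC2 was minus (-0.28). Serpins, which inhibit such proteases, had 8 plus and 4 minus calls of 24, from Spn77Bb (-0.62) to Spn42Da (0.59). Of 36 genes of melanin and haemocytes 7 were plus and 4 minus; the haemocyte genes Hml (0.50), eater (0.30) and NimC2 (0.29) were plus, PPO1, a prophenoloxidase of crystal cells, was minus (-0.30), and 2 of the minus calls were the egg shell genes yellow-g and yellow-g2. The call of eater was carried by the first orientation (0.36 to 0.73), and arrays 63 and 65 read -0.20 and -0.38. Of 4 Turandot stress genes TotB was called (0.29).

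Detoxification enzymes were called on the plus side more often than the 8.57% of all genes. Of 83 cytochrome P450 genes 28 (33.7%) were plus and 4 minus (median 0.07). Cyp28a5 read 1.40, 1.19, 1.73 and 1.58, then 1.07, 1.28, 1.34 and 1.23, and stood at 1.35. Cyp6a2, which oxidises insecticides, was called in 2 elements, at 1.26 and 0.91. Cyp6a8 (1.30) had a value on only the 4 even-numbered arrays, from 1.10 to 1.56. The relatives Cyp6a17 (0.91) and Cyp6a20 were plus while Cyp6a23 (-0.42) and Cyp6a19 (-0.30) were minus. Cyp6w1 stood alone among the P450 genes on the minus side beyond 2-fold, reading from -2.43 to -1.58.

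Enzymes that conjugate such compounds were smaller in size. Of 30 glutathione S-transferases 9 were plus (30% of them) and 2 minus (median 0.14), led by GstE5 (0.50), GstE12 (0.47), GstE9 (0.45) and GstD9 (0.44), with GstO1 (-0.42) and GstE11 (-0.38) on the minus side. Of 31 UDP-glycosyltransferases 8 were plus and 2 minus (median 0.11), led by Ugt35C1 in both of its elements (1.12 and 0.75), Ugt35A1 (0.88) and Ugt37A2 (0.62). Of 20 antioxidant genes 2 were plus and 3 minus, from GILT3 (-0.61) and Sod3 (-0.44) to Irc (0.34).

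Calls among fat body and metabolic genes leaned to the plus side. Of 10 genes of fat body storage and secretion 5 were plus and 0 minus, with a median of 0.25. smp-30, a member of the regucalcin family, ran from 0.92 to 1.60 and stood at 1.29, and its relative regucalcin was called in all 3 of its elements (0.61, 0.50 and 0.40). Adh, the alcohol dehydrogenase, was called in both elements (0.81 and 0.39), and apolpp, the carrier lipoprotein of the blood, stood at 0.45. Of 34 lipid genes 7 were plus and 3 minus (median 0.10), among them yip2 (0.48), Gpdh1 (0.41), the lipase gene bmm (0.31) and mag (-0.40). Of 19 genes of insulin signalling and nutrient hormones 4 were plus and 0 minus, with fit, then the gluconeogenic enzymes Pepck2 (0.75) and Pepck1 (0.64). The median of this list was only 0.02.

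Iron and metal genes had 8 of 28 called plus and 0 minus (median 0.07). Tsf1, the iron carrier transferrin, read 1.14, 1.07, 1.54 and 1.56, then 1.43, 1.41, 1.30 and 1.63, and stood at 1.38 (SE 0.075). Both ferritin chains of the secretory pathway were called, Fer1HCH at 0.52 and Fer2LCH at 0.33 and 0.24 in 2 elements; the 2 genes are neighbours on arm 3R. MtnA, a metallothionein that binds copper, varied from 0.07 on array 64 to 1.35 on array 51 around 0.66.

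Chaperones stood more often on the minus side. Of 23 heat shock and chaperone genes 8 were minus and 3 plus (median -0.10). The small heat shock genes Hsp26 (-0.71) and Hsp27 (-0.56), which are also expressed in ovaries, were furthest, and 4 subunits of the CCT folding ring followed (CCT3 -0.45, CCT1 -0.32, CCT6 -0.28 and CCT7 -0.25). The plus calls were Hsc70-5 (0.34), Hsc70-1 (0.25) and Hsc70-4 (0.24), constitutive relatives of Hsp70.

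Sensory and neural groups differed in their share of calls. Of 44 odorant binding and antennal genes 9 were plus (20.5%) and 6 minus (13.6%), with a median of 0.11. Obp99c stood at 0.81 and read from 0.68 to 0.92, whereas Obp99a stood at -0.85 with arrays from -1.26 to -0.07 and Obp99b at -0.48, so members of the family took opposite sides. Of 116 chemoreceptors 4 were plus and 4 minus, close to the background of 8.57% and 6.31% or below it, with Ir75d furthest (0.71). Of 22 phototransduction genes 6 were plus (27.3%) and 1 minus (median 0.09), including the arrestins Arr1 (0.37) and Arr2 (0.28), Ggamma30A (0.41) and the channel gene trpl (-0.38). Of 14 eye pigment genes ry was called (0.29). Of 17 clock genes 4 were plus, with tim in both elements (0.43 and 0.25), Fer2 (0.42), Pdp1 (0.29) and vri (0.25). Fer2 had a value on 6 arrays, from -0.26 to 1.07, and lost the call in 9 of 19 alternative analyses that gave it a value. Of 45 neuronal genes 2 were plus (nAChRbeta3, 0.37, and nAChRalpha4, 0.30) and 1 minus. The minus gene was brp, the active zone scaffold, with -0.75 in one element and -0.02 in its other, so its elements disagree. Of 27 neuropeptide genes Nplp2 (0.34) and Burs (0.23) were plus.

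Most housekeeping groups held few calls. Of 70 genes of oxidative phosphorylation 3 were plus and 2 minus, of which ND-B8 was furthest (-0.65). Of 37 cytosolic ribosomal protein genes 1 was plus (RpL17, 0.25) and 1 minus (RpL3, -0.33, -0.33 and -0.26 in 3 elements, with a further one at -0.14 not called). Of 59 mitochondrial ribosomal protein genes 7 were minus (11.9%, against 6.31% of all genes) and 1 plus, with a median of -0.08, of 45 translation factors 3 minus and 0 plus, and of 23 proteasome genes 4 minus (17.4%) and 1 plus. Of 30 genes of glycolysis and the TCA cycle 2 were called on each side.

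The remaining groups were read in the same way. Of 22 sarcomere genes 4 were plus and 2 minus, with Mf, which encodes myofilin, at 0.58 and 0.55 in 2 elements and the flight muscle actin Act88F at -0.36. Of 64 genes of the V-ATPase and the Malpighian tubule 4 were plus and 3 minus, with the transporters Oatp58Db (-0.45) and Oatp74D (-0.41). Of 90 cuticle protein genes 5 were called on each side. Of 24 juvenile hormone genes 3 were plus and 2 minus, among them Jhbp11 (0.60), Jhbp3 (0.41) and Jhbp2. Of 9 genes of fatty acid elongation sit was called (0.24), of 8 Npc2 genes Npc2e (0.45), and of 22 Osiris genes Osi8 (-0.30).

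**Figure D3:**
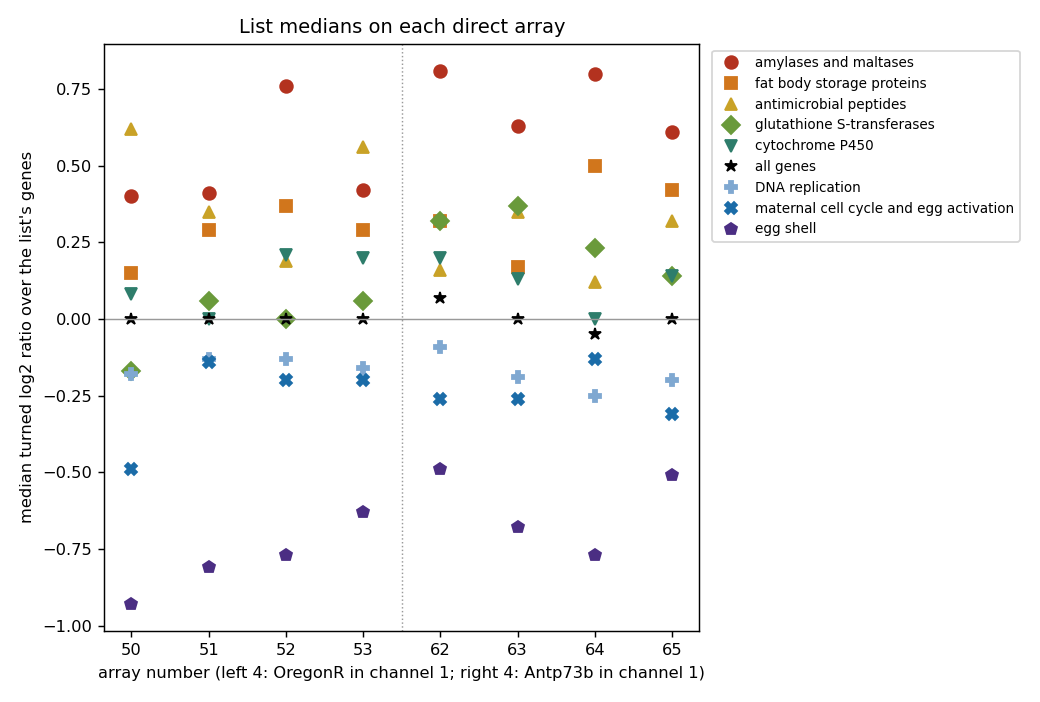
Median turned log2 ratio over the genes of 8 lists and of all 10629 genes (y axis) on each of the 8 direct arrays (x axis; the dotted line parts the orientations), with the dye offset left in. The egg shell median lies between -0.93 and -0.49 on the 8 arrays and the amylase and maltase median between 0.40 and 0.81, while glutathione S-transferases run from -0.17 on array 50 to 0.37 on array 63.

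Both orientations are needed to read these values. The dye offset was called for 3759 elements (24.8%), 1982 plus and 1777 minus, and its median size over all elements was 0.121 against 0.087 for the strain difference. Among called elements the order was the opposite, with medians of 0.13 and 0.31. Turned arrays of the same orientation correlated across elements with r between 0.54 and 0.66, and arrays of different orientation with r between -0.18 and -0.03. Across 15153 elements the offset correlated with the mean of the OregonR self-hybridised arrays at r = 0.75 and of the Antp73b ones at r = 0.81, whereas the strain difference gave r = -0.02 and 0.06. These correlations are over elements that share arrays and spotting, and elements are not independent replicates.

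The offset reached 2-fold in 102 elements, none of them with a listed gene, and 0 of these were called for strain. The largest offsets among listed genes were those of CG6503 (0.86), CG16971 (0.80) and ocn (0.75) among plus offsets and of CG9777 (-0.71), CG5592 (-0.61) and Cep290 (-0.56) among minus offsets. CG6503 read -0.24, -0.26, -0.54 and -0.24 in the first orientation and 1.29, 1.35, 1.51 and 1.48 in the other, and its strain difference of 0.54 was called. Of the 1951 called elements, 801 were on the same side on all their arrays as deposited and 1415 once the offset was taken out. An offset larger than the difference was found in 196 called elements, but in 0 of those at 1.5-fold or more. The lists show it too: the median of the cytosolic ribosomal protein genes was minus on 4 of 4 arrays of the first orientation (-0.25 to -0.14) and plus on 4 of 4 of the other (0.07 to 0.14).

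**Figure D4:**
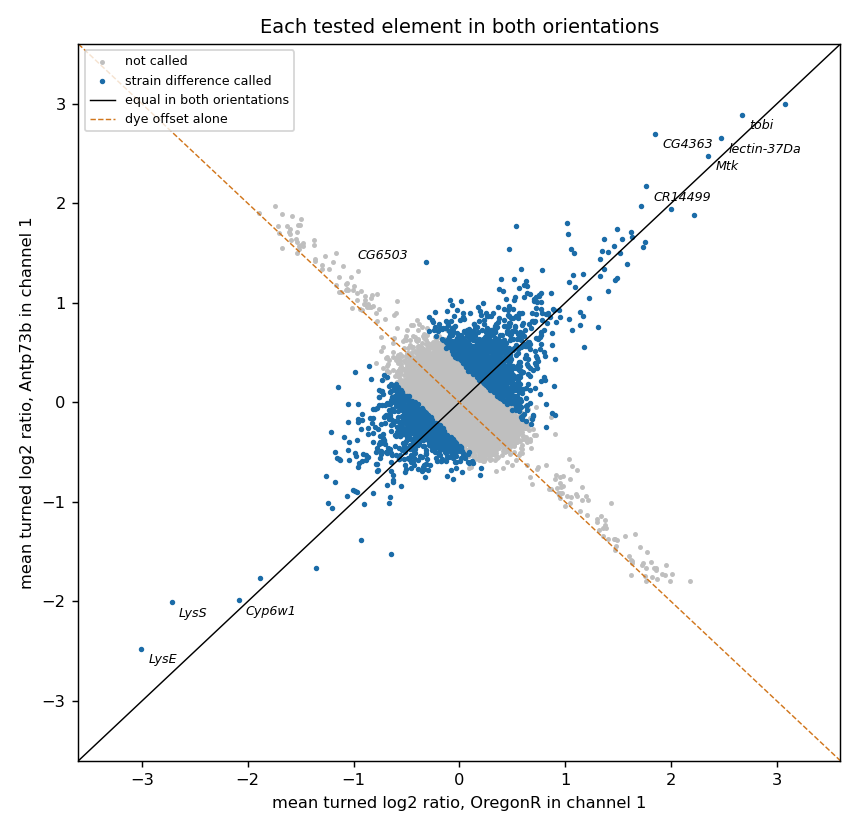
Mean turned log2 ratio of each tested element with OregonR in channel 1 (x axis) and with Antp73b in channel 1 (y axis); blue points are called for strain. Elements on the solid line read alike in both orientations and those on the dashed line carry a dye offset with no strain difference; 102 elements have an offset beyond 2-fold.

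A gene with several elements gives a check within an array. Of 1232 genes with at least 2 tested elements, 79 had at least 2 called, and in 3 of these the called elements lay on opposite sides. Among the genes described above, a second element was not called for exu (-0.09), Ggamma30A (0.16), Obp99b (-0.15), nAChRalpha4 (0.19), Dll (0.11), CG1943 (-0.15) and RpL17 (0.21), and CCT6 had 2 such elements (0.02 and -0.16). The 3 genes with opposite calls were named after their values were seen. shot, a cytoskeletal linker, read -0.35 and 0.27 in its called elements and 0.02 and -0.01 in the others. Mnr read -0.33 and 0.31 with a further element at 0.04, and Mbs, a myosin phosphatase subunit, -0.27 and 0.22. The sources used here do not give the transcripts that these elements cover.

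The direct difference was set against an independent set of arrays. Antp73b minus ap56f plus ap56f minus OregonR, each from 8 other arrays, gives an indirect difference from 16 arrays. The contrast of direct minus indirect was called for 0 of 14949 elements (0%) by limma. At an unadjusted p under 0.05 there were 410, and the median SE was 0.129, so only gaps of several times that size could pass. Among the 24 largest genes the widest gap was 0.51, for Cyp6w1 (-2.04 direct, -1.53 indirect), followed by CG11912 (1.65 direct, 1.34 indirect), neither of them called. For elements called at 1.5-fold or more the indirect value was 0.94 of the direct one in the median. The strain difference also differed between the first and last pairs of arrays in 0 of 14956 elements (0%) after adjustment by limma, with 596 at an unadjusted p under 0.05.

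**Figure D5:**
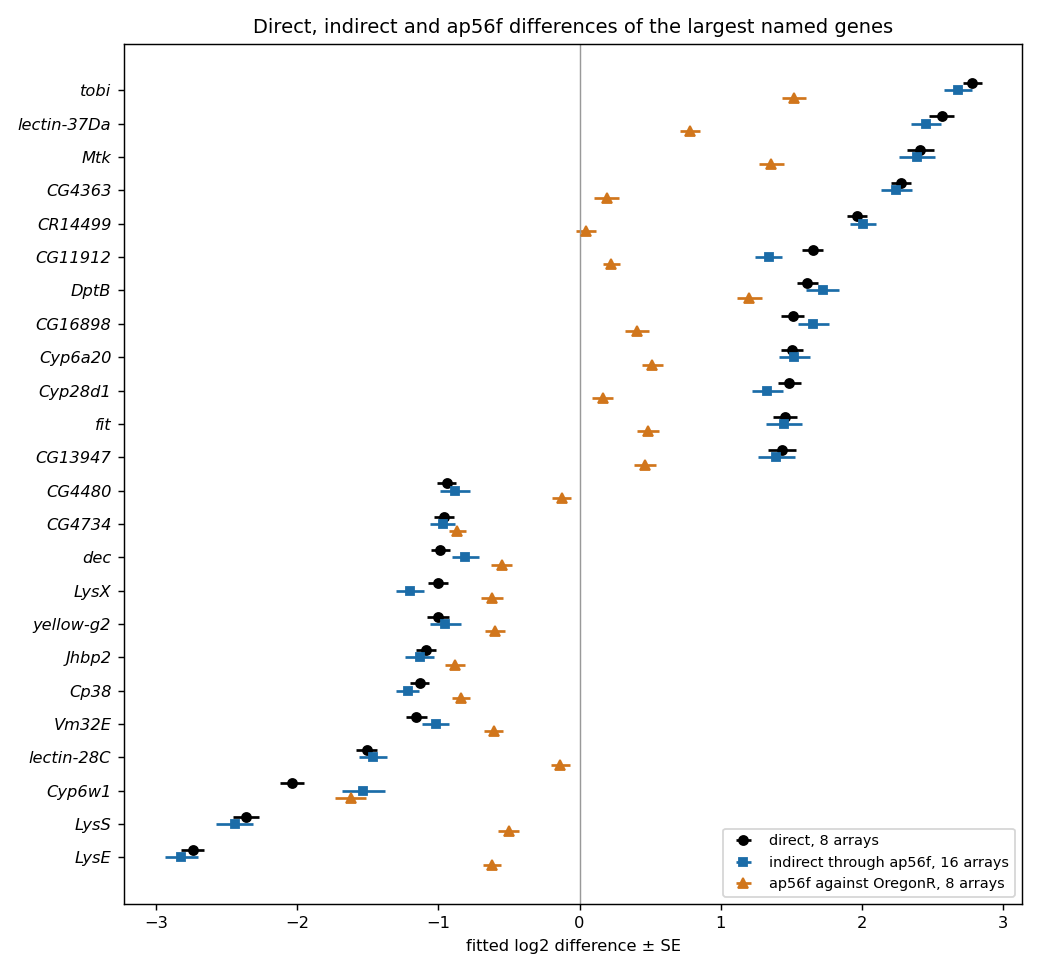
Fitted log2 difference with its SE for the 24 largest named genes, from the 8 direct arrays (circles), from the 16 arrays through ap56f (squares) and, for ap56f against OregonR, from its own 8 arrays (triangles). Direct and indirect values lie within 0.51 of each other for all 24 genes. The ap56f values range from -1.62 (Cyp6w1) to 1.52 (tobi), and some are near 0 (CR14499, 0.04).

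The arrays of the other mutant strain showed which differences from OregonR were also seen there. ap56f carries an allele of apterous, a homeodomain gene of wing development, and its 8 direct arrays against OregonR called 683 of 15335 elements (4.45%). On the 8 arrays of Antp73b against ap56f, 1085 of 15078 (7.2%) were called. These comparisons each use other arrays than the direct one, but the strains' flies or RNA may be the same. Both mutants were set against the same OregonR stock. A difference shared by the mutants and a difference of that stock therefore cannot be told apart.

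Some of the largest genes differed between Antp73b and ap56f by nearly their whole size. CR14499 stood at 0.04 in ap56f against OregonR (limma adjusted p = 0.80) and at 1.96 in Antp73b against ap56f. CG4363 (0.19 and 2.05), Cyp28d1 (0.16 and 1.17), lectin-28C (-0.14 and -1.33) and CG4480 (-0.13 and -0.76) gave the same picture, each called in the latter and not in the former. LysE and LysS were intermediate, at -0.62 and -0.50 in ap56f and -2.20 and -1.94 between the mutants. Obp99a (0.05 and -0.70) and Amyrel (-0.10 and 1.10) were also called between the mutants and not in ap56f.

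Others were near each other in both mutants. Cyp6w1 stood at -1.62 in ap56f against OregonR, and Antp73b and ap56f differed in it by 0.09 (SE 0.083, limma adjusted p = 0.59). CG4734 stood at -0.87 in ap56f and differed by -0.10 between the mutants (limma adjusted p = 0.41), ND-B8 at -0.80 with 0.00 between them, and Ugt35C1 at 0.72 and 0.97 with 0.01 between them for both elements. In Acp53C14a the values were -0.71 and 0.04. Of the 12 largest plus genes 12 were also called on that side against ap56f, and of the 12 largest minus genes 10, all but Cyp6w1 and CG4734. In ap56f against OregonR, 8 of the 12 plus genes and 10 of the 12 minus genes were called on the same side as well. Examples were tobi (1.52), Mtk (1.36) and Cp38 (-0.84). Among all 1932 called elements with a value in Antp73b against ap56f, 563 were called on the same side there and 41 on the opposite side. Drs was such an opposite case: it was 0.69 in ap56f against OregonR and -0.45 in Antp73b against ap56f.

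Of all 10629 genes, 589 were called plus and 290 minus in Antp73b against ap56f, which is the background for the lists in that comparison. By list, 9 of 13 egg shell genes were called minus in Antp73b against ap56f and 0 plus, and their median in ap56f against OregonR was -0.52. Of the amylases and maltases 9 of 11 were called plus and 1 minus, with a median of 0.10 in ap56f. Of the 83 cytochrome P450 genes 15 were plus and 2 minus. In some other lists most calls against ap56f lay on the opposite side from most calls against OregonR, though often in other genes. The seminal fluid list, 9 minus and 2 plus against OregonR, had 8 plus and 0 minus against ap56f (median in ap56f against OregonR -0.26). Phototransduction genes, 6 plus and 1 minus against OregonR, had 0 plus and 5 minus (0.16), and the 4 yolk genes, 2 of them minus against OregonR, had 2 plus and 0 minus (-0.24). The yolk genes yl (-0.13) and Yp2 (-0.12), minus against OregonR, were not called against ap56f. Ebp (0.23) and Acp53C14b (0.23 in an element) were plus there, while Acp53C14a (0.04) and Acp62F (-0.12) were not called. The antimicrobial peptide genes had 3 on each side, and their median in ap56f against OregonR, 0.27, was close to the 0.25 of Antp73b.

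Called genes lay on every large chromosome arm. The share with any call was 16.3% on 2L, 16.8% on 2R, 12.9% on 3L, 15.3% on 3R and 13.9% on X. On the small chromosome 4, which has few genes, 10 of 53 were called plus and 1 minus (20.8% in all), with a median of 0.066 over its genes. Adjacent tested genes that were called on the same side formed 153 runs of 2 or more, 30 of 3 or more and 6 of 4 or more. With 8.57% of genes called plus and 6.31% minus, some runs arise without any grouping. The number to be expected was not computed, so these counts do not show that called genes cluster.

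Several of the longer runs held families of similar genes, while runs of 2 also joined unlike genes, such as nrv3 with Lamp1. The longest held 5 genes on 2R, all plus: the P450 genes Cyp4e2 and Cyp4e1 and the maltases Mal-A1, Mal-A2 and Mal-A3. Also on 2R lay hig with Cyp4p2, Cyp4p1 and Cyp4p3, and Mal-A6, Mal-A7 and Mal-A8, all plus. On 2L the imaginal disc growth factor genes Idgf1, Idgf2 and Idgf3 were plus, Jon25Biii, Jon25Bii and Jon25Bi minus, and Vm26Ac, Vm26Aa and psd minus. The X chromosome run tyf, CG15571, CG15570 and Femcoat was minus. Similar neighbours may share signal on cDNA elements, and the part of this in the runs was not tested.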

How the data were processed

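Whole-fly RNA was hybridised in 2 colours and scanned on a GenePix 4000A, per the labels' protocols; the sources used here do not give what followed. The deposited values are signed fold ratios, never between -1 and 1, with 1 decimal. Their log2 was taken with the sign kept, each array was centred on its median, and the means of duplicate spots were used. Symbols are those of the platform table, updated through RefSeq Release 6. An element needed a value on at least 2 of 4 arrays per orientation (562 of 15732 left out; 14021 had all 8). limma 3.58.1 in R 4.3.3 (lmFit, eBayes, two-sided) fitted strain and dye over the 8 arrays, each comparison of 2 strains over its own arrays, and the triangle over 24. The steps were tested on simulated data. The single-pair fits of ap56f were added after the data were seen.

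Members and lists were chosen with earlier results of these data known, and 8 wrongly matched genes were removed from the lists afterwards, so no list was tested. A gene counts as called if any element is. Named genes were the 12 largest per side with the same side on all arrays, Antp, ap, the 3 largest called per list, the largest dye offsets, the 3 tested genes on each side of Antp, and further called members of lists, added with their values known. Alternatives varied centring, spots, filter, dye term, arrays and blocks. The number of arrays limits the precision.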

Additional observations from a re-analysis of the deposited data

Results flagged for a closer look

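In 4 of 60 groups of 4 arrays that were examined for a sample far from the rest, 1 array stood apart; chance alone gives about 1 in 20. CG11912 read 1.72 on array 65, against 1.51 to 1.52 on the other 3 arrays with Antp73b in channel 1. Jhbp2 read -1.0 on array 51, against -0.54 to -0.53 on the others with OregonR in channel 1. Antp read -0.31 on array 62, against 0.26 to 0.37. The correlation of duplicate spots was 0.517 on array 64, against 0.601 to 0.612 on the other 3 of its orientation.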

How the results depend on the processing

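The 24 largest named genes kept their side and their call in each of 24 alternative analyses on the log2 scale in which they had a value (all but CG4480 had one in all 24), and 65 of 125 named called elements did so throughout; 0 of the 125 changed side. The count of called strain differences (1951) moved under several alternatives, and the cause was not tested: 1069 and 1130 with the lower or the higher spot alone, 924 without a dye term, 3277 with all 36 arrays, 851 and 409 in the first and last pairs, and 485 and 606 in even-numbered and odd-numbered arrays. Without single arrays it ran from 1574 to 1802. At 1.5-fold or more it was 223, fell to 148 with quantile normalization and ran from 211 to 232 without single arrays. The dye offset count (3759) was 1795 with the lower spot alone and 2932 to 3536 without single arrays. The direct against indirect count was 2 on the linear fold scale and 0 to 0 without single arrays, as was the count by place. Antp turned to -0.11 in the first pairs and -0.014 in even-numbered arrays, and ap to -0.047 in the last pairs and to between -0.026 and 0.13 without single arrays; the cause was not tested. Of 51 lists 5 had a median of 0.00 and so no side; of the other 46, 36 kept the side of their median, and the 10 that did not had medians within 0.05 of 0. With place or parity as a block 2141 and 1949 were called. No paired analysis was possible because the groups share no replicate numbers, which here are array numbers.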
